A study of Brassica rapa with 5 samples.

Results

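Zn is an essential nutrient of plants, a structural or catalytic part of many enzymes and transcription factors. In Arabidopsis, a relative of Brassica in the same family, leaves and roots short of Zn switch on a set of Zn uptake and chelation genes through a pair of bZIP transcription factors that sense the metal. The comparison described here asked which transcripts in leaves of Brassica rapa, a crop species that includes turnip and Chinese cabbage, were higher or lower after the Zn supply was lowered. It rests on 2 of the 5 deposited tables of the series, the one of Zn-deficient plants and the one of plants on normal supply, taken by the titles of the samples.

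Plants of accession R-o-18 were grown in hydroponics, first for 14 days in a complete solution that held 3 µM Fe and 2 µM Zn and was free of Cd. The Zn-deficient plants then had 0.005 µM Zn for 7 days, with the other nutrients as before as far as the labels say, and the normal plants stayed in the complete solution. The series also holds plants moved to 0.05 µM Fe, to 50 µM Zn or to 1 µM Cd, whose tables serve below only to place the levels. RNA came from the first pair of expanded leaves, with 3 replicates of 3 plants each per condition, and the series' design text counts 1 digital gene expression library per replicate. Such a library counts a short sequence tag per transcript, and the unit is TPM, here tags per 1000000 clean tags. Because whole leaves were used, fewer cells of a type and less RNA per cell cannot be told apart.

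Each deposited table is a mean over 3 libraries, so each condition has 1 value per gene. The tag totals of the libraries could still be recovered from genes with a single tag, and were 5908301, 5748246 and 5575674 clean tags under Zn deficiency, against 5947527, 5900927 and 5637735 under normal supply. The tables give gene identifiers with no names. None of the 29183 identifiers in the 5 tables was found in the RefSeq gene table used for names, so no gene below carries a name or a function, no list of Zn transporter or other pathway genes could be applied, and the leaf origin was not checked against marker genes.

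More transcripts were higher than lower under Zn deficiency. The table of Zn-deficient leaves listed 26284 genes and the normal one 25831, and 10693 genes had a mean of at least 5 TPM over both. Of these, 309 genes (2.89%) were higher under Zn deficiency by 2-fold or more, and 59 genes (0.552%) were lower by 2-fold or more. Levels were compared as log2(TPM + 1), a scale on which changes of genes with few tags look smaller than they are. These are counts by size. The 2-fold line fell within a continuous distribution: 90 genes lay just above it, with log2 changes of 1 to 1.1, and 127 just below it, at 0.9 to 1. On the lower side, 27 genes lay just past the line and 53 just short of it, within the same distance of 0.1.

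The imbalance was in the tail and not in the bulk. Over all 10693 genes, 5370 had a change above 0 and 5323 below, the median log2 change was 0.0024, and the middle 50% of genes lay between -0.27 and 0.31. The 5th percentile of the change was -0.63 and the 95th was 0.83, so the upper tail was the longer one. At 4-fold the counts were 17 higher and 1 lower (Bra035742).

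**Figure D1:**
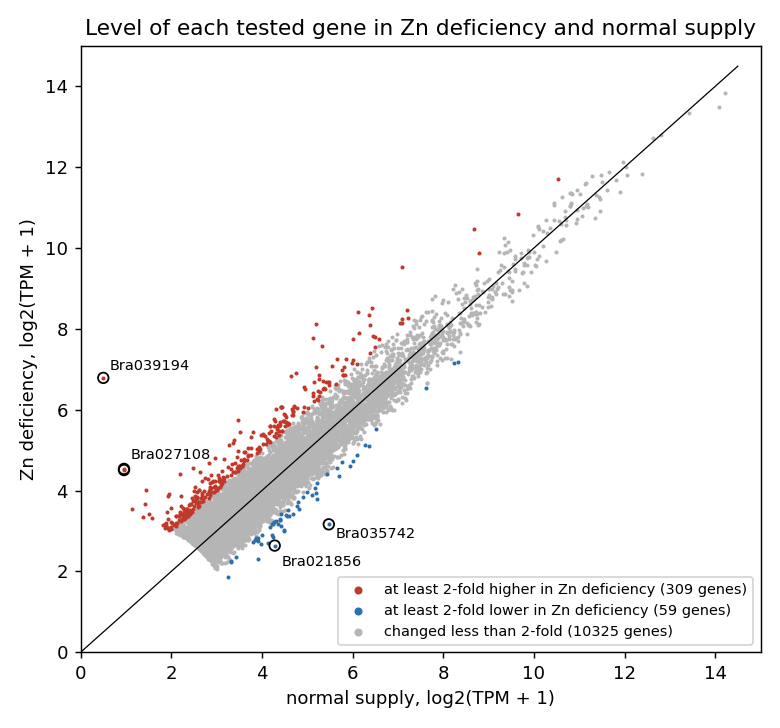
Level of each of 10693 genes under Zn deficiency (vertical axis) and normal supply (horizontal axis), both as log2(TPM + 1) of the deposited means, with the line of equal levels. Red points are the 309 genes higher by 2-fold or more and blue points the 59 genes lower by 2-fold or more under Zn deficiency. Circles mark the genes named in the text, of which Bra027108 and Bra031470 lie on top of each other.

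The sums and medians of the changed genes give the size of the groups, and their direction is set by how the genes were chosen. The 309 higher genes summed to 23279 TPM under Zn deficiency, against 8860 TPM under normal supply, which is 4.04% and 1.55% of the TPM in genes. Their median level was 23.3 TPM in Zn-deficient leaves and 9.24 TPM in normal leaves. The 59 lower genes summed to 1042 TPM under Zn deficiency, against 2415 TPM under normal supply, with median levels of 8.83 and 21.6 TPM in that order.

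Few of the most abundant transcripts changed 2-fold, at a share near that of all genes tested. The 10 genes with the highest mean made up 12.1% of the TPM in genes under Zn deficiency and 14.3% under normal supply. None of the 10 changed 2-fold, with log2 changes from -0.57 to 0.22. Among the top 100 genes, 3 changed at least 2-fold, against 368 of all 10693 genes tested. The log2 changes of the 100 ran from -0.78 to 1.81, with a median of 0.014.

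The share of higher genes lay between 2.48% and 4.11% at every level. It was 2.66% of 3685 genes at 5 to 10 TPM, 2.48% of 4280 genes at 10 to 30 TPM, 3.79% of 2005 genes at 30 to 100 TPM, and 4.11% of 657 genes at 100 to 1000 TPM. Lower genes made up 0.271%, 0.841%, 0.499% and 0.457% of the same classes. Of the 66 genes at 1000 TPM or more, 2 were higher and 0 lower. Counting error alone is given as the coefficient of variation of a single library. At 5 to 10 TPM it was 16.0% under Zn deficiency and 16.3% under normal supply. At 100 to 1000 TPM it was 3.19% and 3.22%. The share of higher genes was not largest where tags were fewest, but log2(TPM + 1) shrinks changes most at the lowest levels. The part of counting error in the share was not tested.

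**Figure D2:**
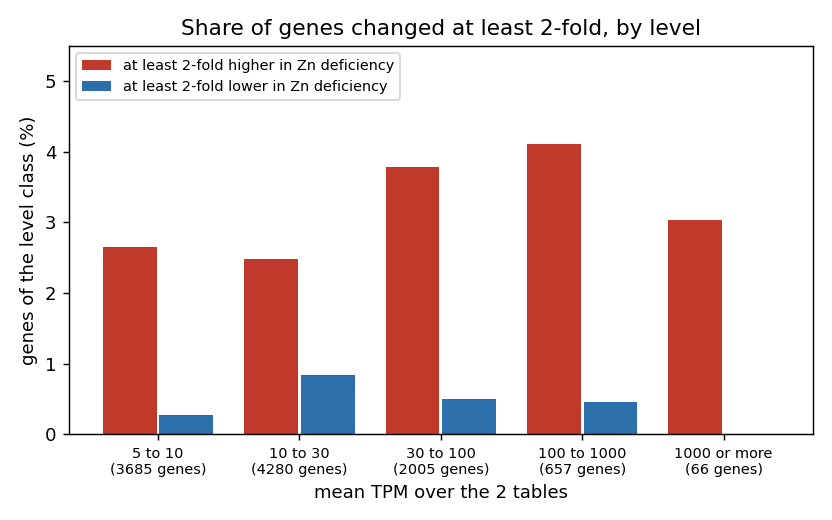
Share of genes at least 2-fold higher (red) or lower (blue) under Zn deficiency, in percent of the genes of each class of mean TPM over both tables. The red bars stand between 2.48% and 4.11% in all 5 classes, and the blue bars stay below 1%.

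Some transcripts were listed under 1 of both conditions only, all at low levels. Under Zn deficiency alone 1695 genes were listed, with a median of 0.116 TPM and at most 5.15 TPM, and under normal supply alone 1242 genes, with a median of 0.113 TPM and at most 1.03 TPM. Of these, 415 and 285 had more than 3 tags over their 3 libraries, and 8 genes under Zn deficiency alone reached 1 TPM, against 1 gene under normal supply alone. None of these genes passed the minimum mean of 5 TPM. Among all 16833 genes below that minimum, 139 were higher and 36 lower by 2-fold or more under Zn deficiency.

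The spread between libraries was recovered in part and was wide under Zn deficiency. A table's tag column is a plain mean of tags over its 3 libraries. In its TPM column the tags of each library are divided by that library's own total before the mean is taken. Put on the scale of TPM, the gap between both columns is a weighted difference between libraries, called the library contrast here. It is positive where the library with the lowest total was below a weighted mean of the others. In that mean the library with the highest total has 97.5% of the weight under Zn deficiency and 62.2% under normal supply. The contrast is given in percent of the gene's mean TPM. It is scaled so that its root mean square over genes estimates the coefficient of variation between libraries. That coefficient was 39.7% under Zn deficiency and 22.4% under normal supply over the genes tested. It fell somewhat with level, from 41.5% and 25.4% at 5 to 10 TPM to 39.8% and 20.4% at 100 to 1000 TPM. The middle library of the Zn-deficient plants has only 2.48% of the weight of the lowest one in this contrast, so its deviations are largely missed, whereas under normal supply the middle library has 37.8%.

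Against this spread, few of the changes passed a test. With limma's moderated test on the recovered spread and Benjamini-Hochberg adjustment, 3 genes were higher (0.0281%) and 1 gene lower (0.00935%) at an adjusted p under 0.05. The median standard error (SE) of a log2 change was 0.30. At an unadjusted p under 0.05, 773 genes were higher (7.23%) and 381 lower (3.56%), 1154 in all. Of the genes changed at least 2-fold, 302 higher and 53 lower ones had such an unadjusted p, which follows largely from their size at this SE. The lowest adjusted p among genes that did not pass was 0.060.

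The genes at least 2-fold higher were tilted towards particular libraries in both tables. Under Zn deficiency their median library contrast was 51.2%, with 256 of 309 genes (82.8%) above 0, while over all genes tested the median was -3.02% and 46.7% lay above 0. Under normal supply the median of the same 309 genes was -21.5%, with 242 genes (78.3%) below 0, while over all genes tested it was 0.40% with 49.1% below 0. The higher genes were thus mostly higher in the Zn-deficient library with the highest total than in the one with the lowest. Among normal libraries they were mostly higher in the one with the lowest total than in the weighted mean of the others. The 59 lower genes tilted the opposite way under Zn deficiency, with a median contrast of -34.6% and 46 genes below 0, and showed little tilt under normal supply, with a median of 2.59%. The part of these library differences in the changes was not tested, and the genes were chosen by the means of the same libraries.

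**Figure D3:**
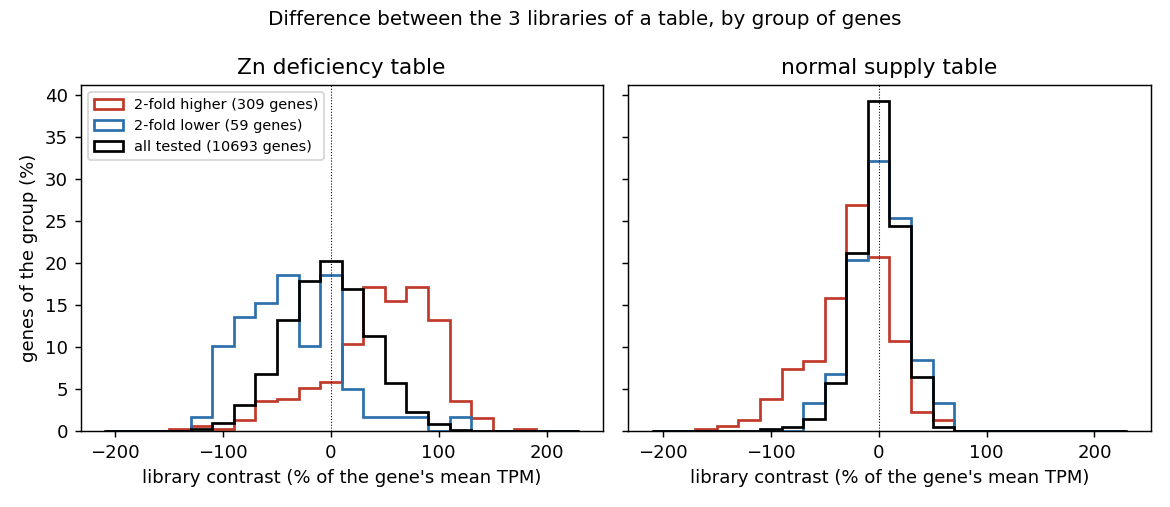
Library contrast in percent of the gene's mean TPM (horizontal axis) in the Zn deficiency table (left) and the normal supply table (right), as the percent of genes of each group (vertical axis). The 309 higher genes (red) centre on 51.2% under Zn deficiency and on -21.5% under normal supply, the 59 lower genes (blue) on -34.6% and 2.59%, and all 10693 genes (black) near 0 in both.

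The same gap sets bounds on single libraries, since no library can hold less than 0 TPM. In 24 of the 309 higher genes (7.77%), 1 Zn-deficient library must have held more than 50% of the TPM summed over the 3 libraries, which was the one with the highest total in 21 genes and the one with the lowest total in 3. Over all genes tested this held for 84 genes (0.786%). Under normal supply it held for 37 of the 309 genes (12.0%), each time in the library with the lowest total, and for 78 of all genes tested (0.729%). The 309 genes were chosen by the means of the same libraries, so their shares are not independent of that choice. Without the 59 genes in which 1 library of either table must have held more than 50%, 250 genes were at least 2-fold higher. In 18 of the 309 genes the libraries of both conditions must overlap: the lowest Zn-deficient library lay below the highest normal one whatever the third library held. For the other genes the deposited columns do not settle it. Such overlap was not counted over all genes tested, so neither this count nor the one for the lower genes has a share to set it against. Among the 59 lower genes, 2 had a Zn-deficient library that held more than 50%, none a normal one, and in 1 gene the libraries must overlap.

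Tags of single libraries could be solved at low levels. Genes with 8 to 17 tags over 3 libraries, which lie below the levels tested, were solved for whole tags per library. Exactly 1 solution was found for 2090 of 2261 such genes under Zn deficiency and 2085 of 2265 under normal supply. The other 171 and 180 genes, in that order, had no solution with the recovered totals. Under Zn deficiency 299 of the solved genes had 0 tags in the library with the lowest total, against 239 in the middle one and 201 in the one with the highest total. Under normal supply the counts were 179, 159 and 226 in that order of libraries. The counts were 273, 164 and 132 under Zn excess, 317, 158 and 159 under Cd exposure, and 163, 171 and 208 under Fe deficiency. At least 75% of the tags lay in the library with the highest total in 86 genes under Zn deficiency, in the middle one in 42 and in the one with the lowest total in 75, against 38, 66 and 37 genes under normal supply. Across the 10693 genes tested, which are not independent and share their libraries, the contrast under Zn deficiency had a Spearman's rho of 0.59 with that under Zn excess, 0.20 with Cd exposure, 0.16 with Fe deficiency and -0.24 with normal supply. Between Zn excess and normal supply rho was -0.41.

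Bra039194 had the largest rise. It stood at 109 TPM under Zn deficiency, with 1933 tags over 3 libraries, and at 0.414 TPM under normal supply, with 7 tags. Its levels were 0.567 TPM under Fe deficiency, 0.460 TPM under Zn excess and 0.751 TPM under Cd exposure, so 4 of the 5 tables were below 1 TPM. The log2 change from normal supply was 6.29 (SE 0.65, adjusted p 0.00167, limma). The rise was carried largely by 1 library. The Zn-deficient library with the highest total must have held between 282 and 306 TPM, the middle one at most 46.9 TPM and the one with the lowest total at most 22.6 TPM, so at least 85.7% of the summed TPM lay in 1 library. The mean of the other two Zn-deficient libraries was between 11.3 and 23.4 TPM, above the normal mean, although either of them could have been at 0. Under normal supply all 7 tags solved into the library with the lowest total, with 0 in the others. The 2 tables' own contrasts would give this change an SE of 1.60, 2.45 times the moderated one, so the adjusted p rests in part on the spread of other genes.

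Bra027108 and Bra031470 had the next rises and share their tags. Both were listed with the same values in the other 4 tables, 0.195 TPM under Fe deficiency, 0.316 TPM under Zn excess, 1.71 TPM under Cd exposure and 0.941 TPM under normal supply. Under normal supply each had 16.5 tags over 3 libraries, a number that whole tags of 1 gene cannot give, so their tags were at least in part divided between genes, and their changes are not independent. Under Zn deficiency Bra027108 stood at 22.2 TPM (386 tags) and Bra031470 at 21.7 TPM (378 tags). The log2 changes were 3.58 (SE 0.34, adjusted p 0.00114, limma) for Bra027108 and 3.55 for Bra031470, with the same adjusted p. Their own contrasts would give SEs of 0.55 and 0.53, 1.59 and 1.56 times the moderated ones. Bra031470 is named because it is the third of the 3 genes that rose, and was chosen after its values were seen. For Bra027108 the Zn-deficient library with the highest total held between 20.3 and 44.3 TPM the middle one between 0 and 46.3 TPM and the one with the lowest total between 0 and 22.3 TPM, while no normal library can have exceeded 2.23 TPM.

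Bra035742 had the largest fall and was the only gene that fell past the test. It stood at 7.97 TPM under Zn deficiency (136 tags) and 43.5 TPM under normal supply (761 tags). The change was -2.31 in log2 (SE 0.30), at an adjusted p of 0.0113 (limma). Its own contrasts would give an SE of 0.50, 1.70 times the moderated one. It was also low under Zn excess, at 11.7 TPM, and high under Fe deficiency and Cd exposure, at 118 and 117 TPM. The 5 levels therefore did not follow the order of Zn supply, since the tables with 0.005 µM and 50 µM Zn were both below the one with 2 µM. No Zn-deficient library can have exceeded 16.0 TPM, and whole numbers of tags left 46 to 81 of its 136 tags in the library with the lowest total. The normal library with the lowest total held 33.9 to 48.4 TPM, above every Zn-deficient library, and the other two normal libraries were not bounded from below.

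Bra021856 was the next lower gene by size and did not pass the test. It had 5.23 TPM under Zn deficiency (90 tags) and 18.4 TPM under normal supply (324 tags). The change was -1.64 in log2 (SE 0.32, 95% interval -2.33 to -0.95), at an adjusted p of 0.152 (limma). Its other levels were 8.06 TPM under Fe deficiency, 15.7 TPM under Zn excess and 24.7 TPM under Cd exposure. Its library contrast was -7.24% under Zn deficiency and 34.2% under normal supply, the second beyond the middle 50% of genes tested there (-12.6% to 13.7%), and its own contrasts would give an SE of 0.27.

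**Figure D4:**
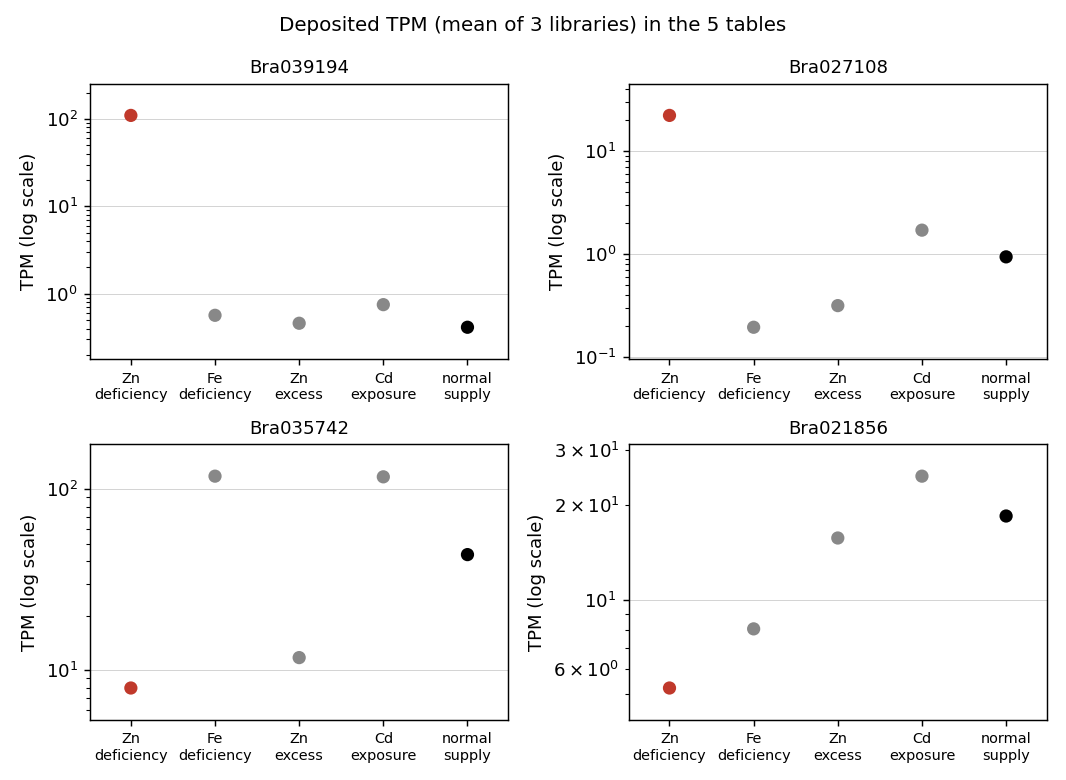
Deposited TPM (means of 3 libraries, log scale) of 4 genes in the 5 tables, with Zn deficiency in red, normal supply in black and the other treatments in grey. Bra039194 and Bra027108 stand out in Zn deficiency alone, at 109 and 22.2 TPM, and Bra035742 is low in Zn deficiency and Zn excess, at 7.97 and 11.7 TPM.

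**Figure D5:**
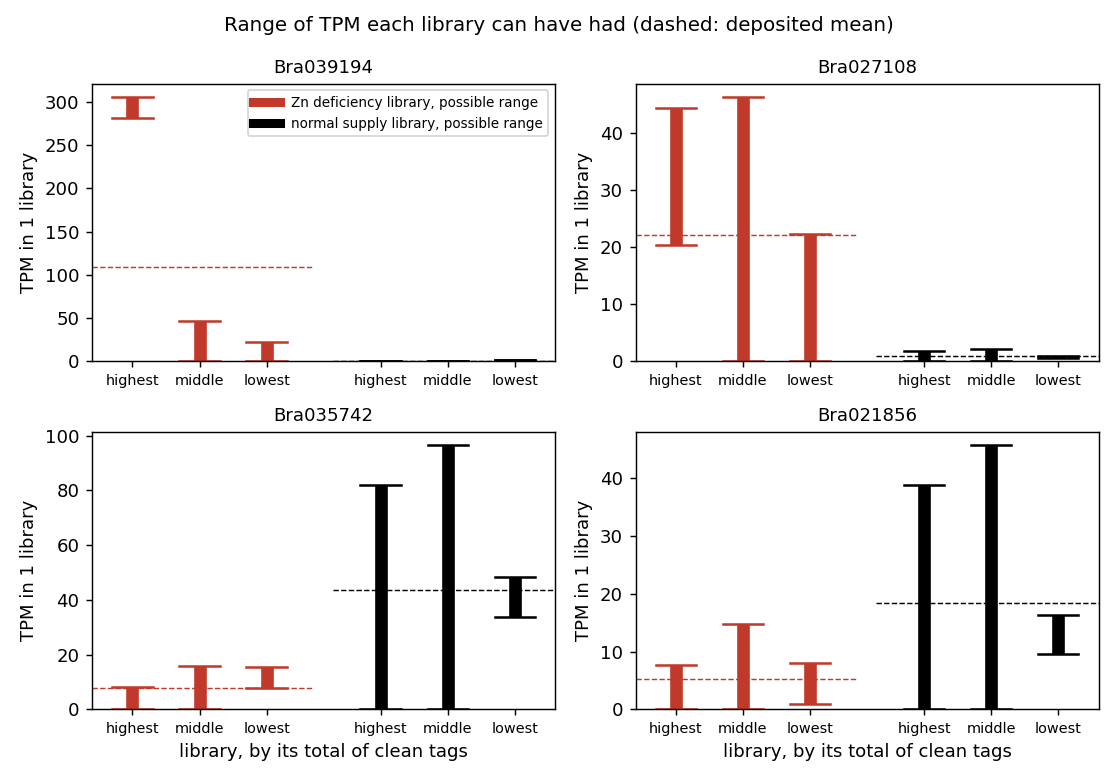
Range of TPM that each library can have had in Zn deficiency (red) and normal supply (black), for the same 4 genes. Libraries are ordered by their total of clean tags, and dashed lines are the deposited means. For Bra039194 the Zn-deficient library with the highest total lies between 282 and 306 TPM and the other Zn-deficient libraries below 46.9 TPM.

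The 17 genes at least 4-fold higher differed in where they started. Their levels ran from 10.7 to 739 TPM under Zn deficiency, with a median of 109 TPM, and from 0.414 to 136 TPM under normal supply, with a median of 10.2 TPM. Of the 17, 6 were below 2 TPM under normal supply. In 7 of them the normal library with the lowest total must have held more than 50% of the TPM, and in 2 a Zn-deficient library did. All 17 had an unadjusted p under 0.05 (limma), against 1154 of the 10693 genes tested. For the 17 this follows largely from the size by which they were chosen. Their adjusted p reached up to 0.407 (limma).

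The other treatments show where the levels of the changed genes lay. Zn deficiency had the highest of the 5 tables for 245 of the 309 higher genes, Fe deficiency for 60 and Zn excess for 4. Over all genes tested, Zn deficiency was highest for 2425 (22.7%) and Fe deficiency for 3781 (35.4%). The median level of the 309 genes was 23.3 TPM under Zn deficiency, 15.0 TPM under Fe deficiency, 10.6 TPM under Zn excess, 5.62 TPM under Cd exposure and 9.24 TPM under normal supply, so it was lowest in Cd-exposed leaves. The same medians over all genes tested were 14.3, 16.1, 14.6, 13.0 and 14.0 TPM in that order of tables. For the 59 lower genes the medians were 8.83, 15.3, 18.3, 24.7 and 21.6 TPM, and Zn deficiency was the lowest table for 51 of them (86.4%), against 3107 of all genes tested (29.1%). Since the genes were chosen by Zn deficiency against normal supply, the place of these 2 tables is set by that choice.

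Few genes set Zn deficiency apart from every other table. Of the genes tested, 50 were at least 2-fold higher under Zn deficiency than in each of the other 4 tables and 6 were at least 2-fold lower. At 4-fold, 6 genes were above all 4 tables and 0 below. These are counts by size, with no test.

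B. rapa carries many duplicated genes from an ancient multiplication of its genome. Tag numbers that are not whole over 3 libraries were taken as tags divided between genes. Whether the genes that share them are duplicates was not checked. Of the 309 higher genes, 79 (25.6%) had such divided tags in either table, of the 59 lower genes 6 (10.2%), and of all genes tested 3248 (30.4%). The difference between these shares was not tested.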

How the data were processed

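The authors' tables, 1 per condition, list per gene a mean number of clean tags and a TPM, per the file headers. The tag numbers as deposited are estimated counts: 76.9% of values under Zn deficiency and 77.4% under normal supply are whole tags over 3 libraries (within 0.0003 tag at low values), and the others hold tags divided between genes. The deposited TPM values were scaled by the authors to the clean tags of each library and sum to 576853 under Zn deficiency and 571830 under normal supply, so 57.7% and 57.2% of clean tags lay in genes. The mapping tool and the genome build and annotation behind the counts: not given in the sources used here. The authors' files carry no replicate values.

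Genes that 1 table does not list entered with 0 there. Changes are log2(TPM + 1), Zn deficiency minus normal supply, for genes with a mean of at least 5 TPM. Library totals came from the 3 commonest TPM values among genes with 1 tag in 1 library, which covered 92.8% of such genes under Zn deficiency and 85.3% under normal supply. The squared library contrast of a gene was scaled by its trend on level in each of the 5 tables (60 level bins), averaged over them and moderated by limma (version 3.58.1, under R 4.3.3), with 12.2 degrees of freedom in all. Each p-value measures the spread between replicate pools as far as the contrast shows it. It assumes that a gene varies alike in all 5 tables relative to the trend. The degrees of freedom also count the 5 contrasts of a gene as independent, which was not tested. Across genes, Spearman's rho between the contrasts of 2 tables ran from -0.41 to 0.59. No count model was run, as each condition has 1 value. The 309 and 59 genes, the named genes (the 2 largest rises and 2 largest falls that pass the test, filled by size) and the settings were chosen with earlier results of these data known. Other settings are compared at the end. Bounds on libraries follow from the 2 columns, the recovered library totals and values of at least 0, with no further model.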

Additional observations from a re-analysis of the deposited data

How the results depend on the processing

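Counts by size moved with the settings. With a pseudocount of 5, 134 genes were at least 2-fold higher under Zn deficiency and 21 lower. With a pseudocount of 0.1, 389 were higher and 92 lower, and without a filter on low values 448 were higher and 95 lower. Raising the minimum mean to 20 TPM left 3993 genes, of which 138 were higher and 21 lower, and 1 gene was higher past the adjusted p. At 4-fold, 17 were higher and 1 lower, and with an adjusted p under 0.05 required as well, 3 were higher and 1 lower. A larger pseudocount makes every log2 change smaller in size, so the counts by size fall as it grows. The moves with the filter follow from the genes admitted, and those at 4-fold or with an adjusted p from the stricter cut. Size factors (a shift of 0.0025 in log2) gave 307 higher and 61 lower genes. Of the 24 counts under other settings 13 were within 1.5 times those reported. All 20 values of the 5 named genes under other pseudocounts, size factors or the spread of the 2 tables alone kept their direction and their side of the threshold. The restriction to genes in which no library must hold more than 50% was added after seeing the data. No paired analysis was possible because the tables hold means over their libraries, which also means that no single library could be left out.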
